A study of Mus musculus with 8 samples.

Results

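SLAM family receptors and SAP, the adaptor encoded by Sh2d1a, were followed across CD4+ T cells from the neonatal mouse liver. The members are the rows of the gene count table with 7 given symbols: Slamf1, Slamf6, Slamf7, Cd84, Ly9, Cd48 and Sh2d1a. All 7 were found among its 52997 symbols, and all 7 were among the 11490 genes with enough counts to test. The cells came from C57BL/6 mice that lacked Aire and carried a GFP reporter of Foxp3, so every group shared both alleles and no mice with functional Aire were included. Live CD45+ TCRb+ CD4+ cells without Foxp3 were sorted from liver at 5 or 10 days of age and divided into PD-1- and PD-1+ cells, with 1000 cells per library. This gave 4 groups of 2 libraries, a PD-1- and a PD-1+ group at each age. The labels name no animals. The 2 libraries of each 5-day group differed in sex and so held RNA of different animals, while for the 10-day groups this is not known and the spread behind the p-values may be technical there.

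SLAM receptors are surface proteins of the immunoglobulin superfamily by which blood cells touch one another. Most bind another copy of themselves on the neighbouring cell. CD48, the protein of Cd48, has a lipid anchor in place of a cytoplasmic tail and in the mouse binds CD2 and 2B4 (Cd244). The tails of most of the others carry a tyrosine switch motif that binds SAP, which brings in the kinase FYN, or else the phosphatases SHP-1, SHP-2 and SHIP1. SAP is needed for natural killer T cells to develop and for CD4+ T cells to help B cells in germinal centres.

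The receptor genes lie side by side on chromosome 1, and Sh2d1a lies on the X chromosome. From Cd244a at base 171559193 to the end of Slamf6 at base 171953170 (GRCm38, GENCODE M21 annotation) the cluster spans 394.0 kb. In order, Ly9 runs from 171588624 to 171607410 on the minus strand and Slamf7 from 171632403 to 171653035 on the minus strand. Cd48 (171682009 to 171705258), Slamf1 (171767127 to 171801184), Cd84 (171839697 to 171890718) and Slamf6 (171917515 to 171953170) follow on the plus strand. Sh2d1a runs from 42502453 to 42529330 on the plus strand of chromosome X and shares 1465 exonic bases with Tenm1 on the opposite strand. Tenm1 had 7 to 34 counts in any library. Slamf7 shares 423 exonic bases with the antisense gene Gm37787, which had 0 to 11 counts. Whether counting used the strand is not stated, and reads of such partners cannot be told apart.

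The promoters of Slamf7, Cd48 and Slamf1, which were higher in PD-1+ cells, are printed with that of Cd84, whose difference changed with age. Each is the 250 bases before the gene's start in RefSeq (GRCm38.p6), 5′ to 3′ on the gene's own strand. Their positions are chr1:171649000-171649249 on the minus strand, and chr1:171681742-171681991, chr1:171766882-171767131 and chr1:171839447-171839696 on the plus strand. The RefSeq start of Slamf7 differs from that of GENCODE, and its window lies inside the gene as placed above. Capitals mark 4 motifs searched on both strands: the AP-1 motif TGANTCA, the Runx motif TGTGGT, the T-box motif GGTGTGA and the Ets motif AGGAAG.
Slamf7: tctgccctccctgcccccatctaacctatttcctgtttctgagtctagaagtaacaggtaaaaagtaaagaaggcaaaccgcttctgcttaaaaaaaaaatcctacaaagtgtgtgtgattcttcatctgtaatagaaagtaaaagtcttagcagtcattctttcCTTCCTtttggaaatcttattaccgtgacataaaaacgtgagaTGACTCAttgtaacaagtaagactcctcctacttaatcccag
Cd48: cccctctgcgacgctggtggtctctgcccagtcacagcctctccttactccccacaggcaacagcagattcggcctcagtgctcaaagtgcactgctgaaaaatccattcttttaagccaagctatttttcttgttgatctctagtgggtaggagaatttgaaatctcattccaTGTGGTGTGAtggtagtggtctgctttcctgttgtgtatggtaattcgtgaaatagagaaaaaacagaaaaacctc
Slamf1: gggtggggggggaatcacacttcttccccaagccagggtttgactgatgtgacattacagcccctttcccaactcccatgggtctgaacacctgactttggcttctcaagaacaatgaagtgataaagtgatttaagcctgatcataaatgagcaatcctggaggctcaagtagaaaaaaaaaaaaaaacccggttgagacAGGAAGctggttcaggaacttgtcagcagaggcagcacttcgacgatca
Cd84: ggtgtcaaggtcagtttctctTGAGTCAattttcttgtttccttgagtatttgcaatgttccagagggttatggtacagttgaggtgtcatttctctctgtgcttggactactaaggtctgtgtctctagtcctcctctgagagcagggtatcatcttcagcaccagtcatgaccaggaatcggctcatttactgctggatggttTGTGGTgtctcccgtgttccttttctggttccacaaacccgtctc
In Slamf7 an AP-1 match (TGACTCA) begins 42 bases before the start and an Ets match, read on the other strand, 85 bases before it. In Cd48 a Runx match at 76 bases overlaps a T-box match at 73 bases. In Slamf1 the match is an Ets motif at 49 bases, and Cd84 holds a Runx match at 45 bases and an AP-1 match (TGAGTCA) at 229 bases. Of 32851 promoter windows of the same length, 6.75% held the AP-1 motif, 14.0% the Runx motif, 3.33% the T-box motif and 29.5% the Ets motif. Slamf6 had a promoter in the table without a match. The motifs were picked after the sequences had been read, and a match describes letters, not a bound site. Ly9 and Sh2d1a are named only.

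Library totals ran from 1473216 to 3019551 counts. Levels are given as CPM, the gene's count normalised to the TMM-scaled size of its library. Pdcd1, which encodes the sorted PD-1, was at 0.568 to 1.95 CPM in the 4 PD-1- libraries and 269 to 696 CPM in the 4 PD-1+ libraries. The summed level of 9 T cell genes, Cd4 among them, was 5281 to 5652 CPM in 5-day PD-1+ cells, 7104 to 8559 CPM in 10-day PD-1+ cells and 5663 to 6425 CPM in PD-1- cells. The 12 markers of blood stem cells and megakaryocytes, which carry the Slamf1 protein, summed to 1.70 to 7.81 CPM in PD-1- and 5.15 to 13.9 CPM in PD-1+ libraries, and 0 of them could be tested. Markers of NK cells (7 genes, with Klra4 at 0 in every library) summed to 2.59 to 27.9 CPM in PD-1- and 3.09 to 7.84 CPM in PD-1+ libraries. The 11 macrophage markers summed to 35.3 to 88.0 and 52.0 to 68.4 CPM, the 8 hepatocyte markers to 10.8 to 20.4 and 28.6 to 79.3 CPM, and the 8 dendritic cell markers to 9.40 to 22.3 and 32.4 to 74.8 CPM. The 8 B cell markers, Ighm among them, summed to 546 to 652 and 295 to 356 CPM, and 6 plasma cell markers, which activated T cells share in part, to 137 to 323 and 291 to 402 CPM, again PD-1- first. In the same order, 2 CD8 genes summed to 27.5 to 47.6 and 6.18 to 27.4 CPM. The 8 erythroid markers, 1 of them with enough counts to test, summed to 11.1 to 29.8 and 2.81 to 5.34 CPM. The 5 endothelial markers, Pecam1 among them and 1 with enough counts to test, summed to 295 to 378 and 93.7 to 145 CPM. The part of these levels in the results was not tested. In bulk RNA, fewer cells of a type and less RNA per cell cannot be told apart. The pair of 5-day libraries numbered 3 was male: 4 genes of the Y chromosome had 672 and 601 counts there and 0 in the other 6, which were female.

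Over both ages together, 3 of the 7 members were higher in PD-1+ cells, 0 were lower and 4 were not called. Slamf7 was higher by a fold of 14.6, Slamf1 by 3.26 and Cd48 by 2.43, and Slamf6, Cd84, Ly9 and Sh2d1a did not pass the test. Genes count as called at an edgeR adjusted p below 0.05. Among all 11490 tested genes 21.9% were called higher and 19.6% lower in this comparison. The members' median log2 difference was 0.26, against -0.01 over all tested genes.

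**Figure D1:**
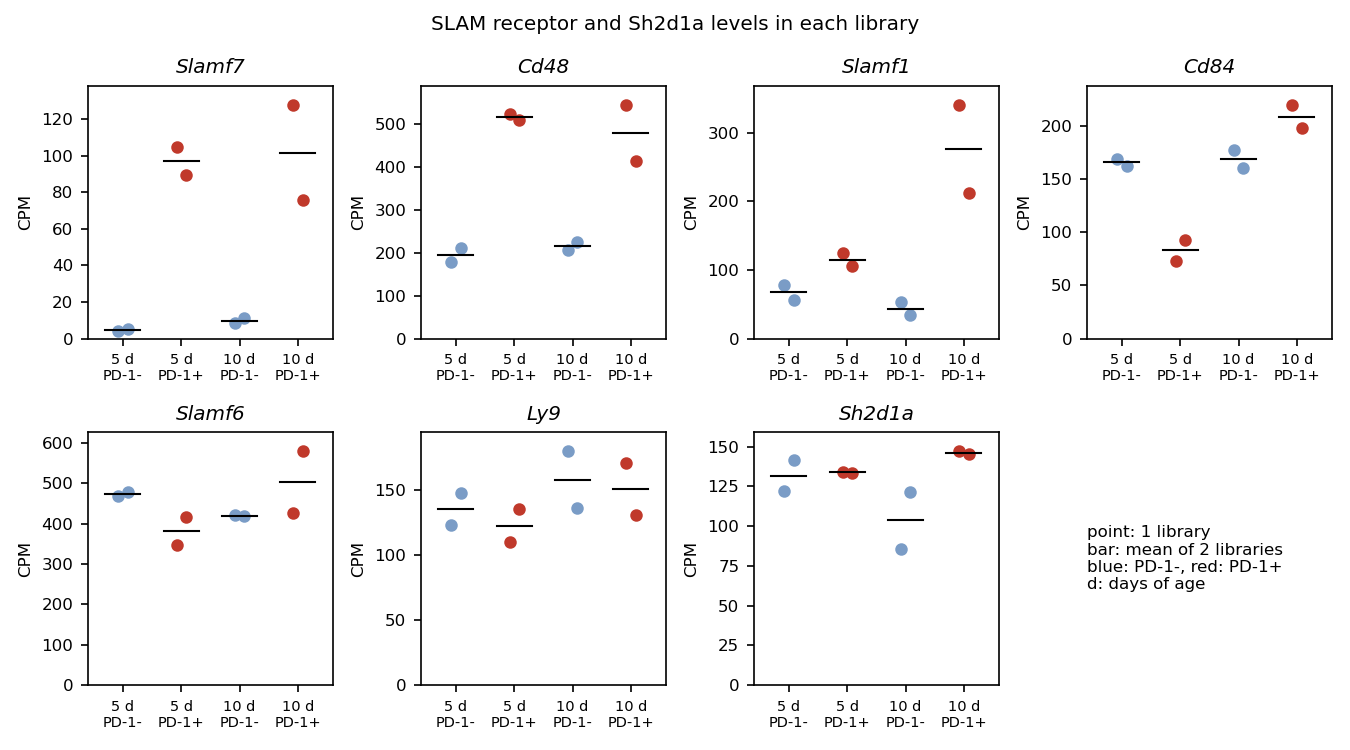
CPM of each gene (vertical axis, starting at 0) in the 2 libraries of each group (horizontal axis), with bars at the mean. Slamf7 stood at 3.89 to 11.1 CPM in PD-1- and 75.6 to 128 CPM in PD-1+ libraries, and Cd84 was lowest, at 73.1 and 93.1 CPM, in PD-1+ libraries at 5 days.

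Slamf7 encodes CRACC, a receptor also found on NK and plasma cells that signals through the adaptor EAT-2 rather than SAP. At 5 days its level was 3.89 and 5.11 CPM in PD-1- libraries (12 and 9 counts) and 104 and 89.3 CPM in PD-1+ libraries. At 10 days it was 8.42 and 11.1 CPM in PD-1- (26 and 17 counts) and 128 and 75.6 CPM in PD-1+ libraries. All 4 PD-1+ libraries stood above all 4 PD-1- libraries, with a wide gap. The log2 difference was 3.87 ± 0.27 (SE) over both ages (edgeR adjusted p = 5.93e-08), 4.45 ± 0.36 at 5 days and 3.42 ± 0.32 at 10 days (edgeR adjusted p = 9.37e-08 and 4.73e-07). The value over both ages was higher than those of 98.1% of tested genes. The change of the difference between the ages was -1.03 ± 0.50 with an interval from -2.09 to 0.02 (edgeR adjusted p = 0.342). The genes for EAT-2, Sh2d1b1 and Sh2d1b2, had 1 count each in all 8 libraries together.

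Cd48 encodes the ligand of CD2 and 2B4. At 5 days its level was 179 and 210 CPM in PD-1- and 522 and 508 CPM in PD-1+ libraries. The 10-day levels were 207 and 224 CPM in PD-1- and 545 and 413 CPM in PD-1+ libraries. The populations did not overlap at either age. The log2 difference was 1.28 ± 0.14 over both ages (edgeR adjusted p = 3.74e-06), a fold of 2.43, with 1.41 ± 0.16 at 5 days and 1.15 ± 0.16 at 10 days (edgeR adjusted p = 5.42e-06 and 4.17e-05). The change of this difference between the ages was -0.25, with a 95% interval from -0.73 to 0.23 (edgeR adjusted p = 0.662). Of its partners, Cd2 stood at 294 to 416 CPM in PD-1- and 431 to 578 CPM in PD-1+ libraries. It differed by 0.18 ± 0.16 at 5 days (edgeR adjusted p = 0.396) and by 0.76 ± 0.16 at 10 days (edgeR adjusted p = 0.00149). The change of the Cd2 difference between the ages was not called (0.58 ± 0.22, edgeR adjusted p = 0.206). Over both ages Cd2 was called higher, by 0.47 ± 0.15 (edgeR adjusted p = 0.0206). That call was lost without any 1 of PD-1- 10-day replicate 1, PD-1- 10-day replicate 2 and PD-1+ 10-day replicate 1 (edgeR adjusted p = 0.0774, 0.0655 and 0.0731), and without both 5-day libraries numbered 3 (0.0523). Cd244, the gene of 2B4, had 1 to 10 counts per library and was not tested.

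Slamf1 encodes CD150, a costimulatory receptor that binds itself and SAP. At 5 days it stood at 77.4 and 56.8 CPM in PD-1- and 125 and 105 CPM in PD-1+ libraries. At 10 days it stood at 52.5 and 33.8 CPM in PD-1- and 340 and 212 CPM in PD-1+ libraries. The 10-day PD-1+ libraries were thus the highest of the 8, and the lowest PD-1+ library stood above the highest PD-1- library. Over both ages Slamf1 was higher in PD-1+ cells by 1.70 ± 0.44 on the log2 scale (edgeR adjusted p = 0.0199). Without PD-1- 10-day replicate 1 this was 1.53 (edgeR adjusted p = 0.0827), and with no filter on low counts 1.73 (edgeR adjusted p = 0.0863).

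Counted at each age, 3 of 7 members were called higher at 5 days and 1 lower, against 17.6% and 16.7% of all tested genes. At 10 days 3 of 7 were called higher and 0 lower, against 16.4% and 12.9%. Slamf7, Cd48 and Slamf1 were the genes called higher at both ages, and Cd84 was the gene called lower at 5 days. Slamf1 differed by 0.76 ± 0.26 at 5 days (edgeR adjusted p = 0.0403) and by 2.64 ± 0.27 at 10 days (edgeR adjusted p = 1.08e-05). The 5-day call was lost without PD-1- replicate 3, PD-1+ replicate 2 or PD-1+ replicate 3 of that age (edgeR adjusted p = 0.179, 0.198 and 0.0708), without both libraries numbered 3 (0.197) and under upper-quartile scaling (0.0578).

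**Figure D2:**
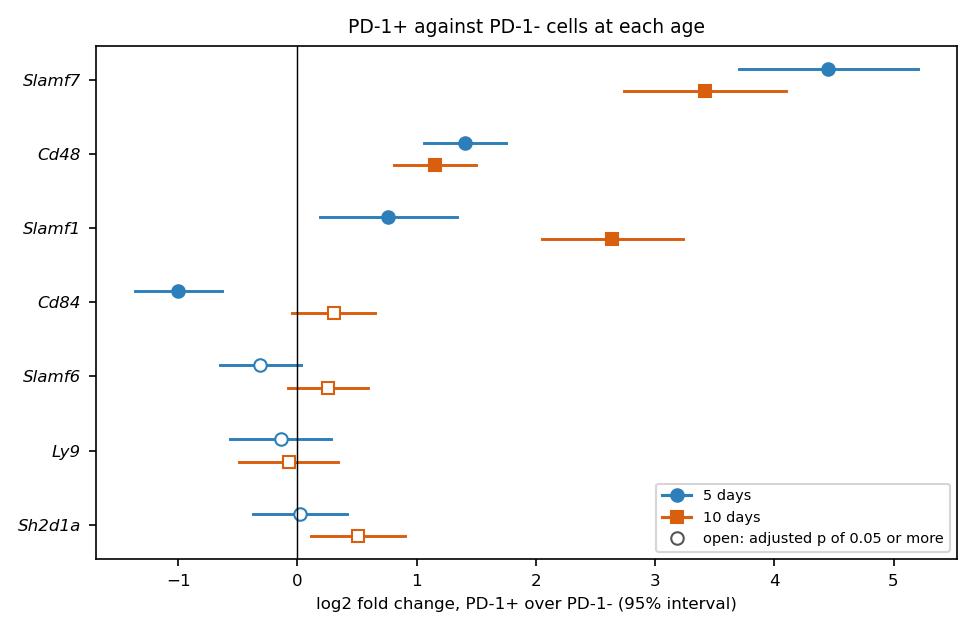
Log2 fold change of PD-1+ over PD-1- cells (horizontal axis) with its 95% interval for each gene (vertical axis), at 5 days (circles) and 10 days (squares), filled where the adjusted p is below 0.05. Slamf1 moved from 0.76 at 5 days to 2.64 at 10 days and Cd84 from -0.998 to 0.30, and the intervals of the 2 ages are apart for these genes.

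Cd84 encodes SLAMF5, a self-binding receptor that takes part in lasting contacts between T and B cells. Its levels at 5 days were 169 and 163 CPM in PD-1- and 73.1 and 93.1 CPM in PD-1+ libraries. At 10 days they were 178 and 161 CPM in PD-1- and 220 and 198 CPM in PD-1+ libraries. PD-1+ libraries therefore lay below PD-1- libraries at 5 days and above them at 10 days, with no overlap at either age. The log2 difference was -0.998 ± 0.17 at 5 days (edgeR adjusted p = 0.000303) and 0.30 ± 0.17 at 10 days (edgeR adjusted p = 0.187). Averaged over the ages it was -0.33 ± 0.24 (edgeR adjusted p = 0.292). In each alternative run, leaving out any 1 library included, Cd84 remained called lower at 5 days, by 0.80 to 1.18 on the log2 scale.

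The interaction of age and PD-1 tests whether the PD-1 difference changed between 5 and 10 days. It was called for 2 of 7 members, both upward, against 1.2% of tested genes called upward and 0.923% downward. For Slamf1 the difference grew by 1.88 ± 0.38 (edgeR adjusted p = 0.0265) and for Cd84 by 1.302 ± 0.24 (edgeR adjusted p = 0.00887). The Slamf1 call was lost without PD-1- 5-day replicate 2 (edgeR adjusted p = 0.0709), PD-1+ 5-day replicate 2 (0.0927), PD-1+ 5-day replicate 3 (0.116) or PD-1- 10-day replicate 2 (0.071), and without both libraries numbered 3 (0.0691). The Cd84 call was lost without PD-1+ 5-day replicate 2, where the value was 1.103 (edgeR adjusted p = 0.0887), and it held without both 5-day libraries numbered 3. Of the 9 T cell genes, 2 were called upward in the same interaction, 3 were lower in PD-1+ cells at 5 days and 4 higher at 10 days. Among all tested genes 16.7% were lower at 5 days and 16.4% higher at 10 days. The part of the T cell genes in these results was not tested.

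Age was next compared within each population. In PD-1- cells 0 of 7 members were called in either direction, against 0.148% of tested genes called higher and 0.122% lower at 10 days. Over all tested genes 1219 had an unadjusted p below 0.05 there, and DESeq2 also called 0 of the members. Slamf7 stood at 4.50 ± 0.86 and 9.74 ± 1.87 CPM (SD, n = 2) in PD-1- cells at 5 and 10 days (log2 difference 1.11 ± 0.42, edgeR adjusted p = 0.345). Slamf1 stood at 67.1 ± 14.6 and 43.1 ± 13.2 CPM (-0.62 ± 0.28, edgeR adjusted p = 0.462). In PD-1+ cells 2 of 7 members were higher at 10 days and 0 lower, against 7.39% and 6.98% of tested genes. Cd84 was higher by 1.33 ± 0.17 (edgeR adjusted p = 9.80e-05), from 83.1 ± 14.2 to 209 ± 15.7 CPM, a fold of 2.52. Slamf1 was higher by 1.26 ± 0.25 (edgeR adjusted p = 0.00606), from 115 ± 14.2 to 276 ± 91.2 CPM. The Slamf1 call was lost without PD-1+ 5-day replicate 2, PD-1+ 5-day replicate 3 or PD-1+ 10-day replicate 1 (edgeR adjusted p = 0.0504, 0.0777 and 0.0501). All 10-day libraries were female, so age and sex were partly mixed. Without both male libraries Cd84 and Slamf1 remained higher at 10 days in PD-1+ cells. Pdcd1 was itself higher at 10 days in PD-1+ cells, by 1.03 ± 0.18 (edgeR adjusted p = 0.00133).

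**Figure D3:**
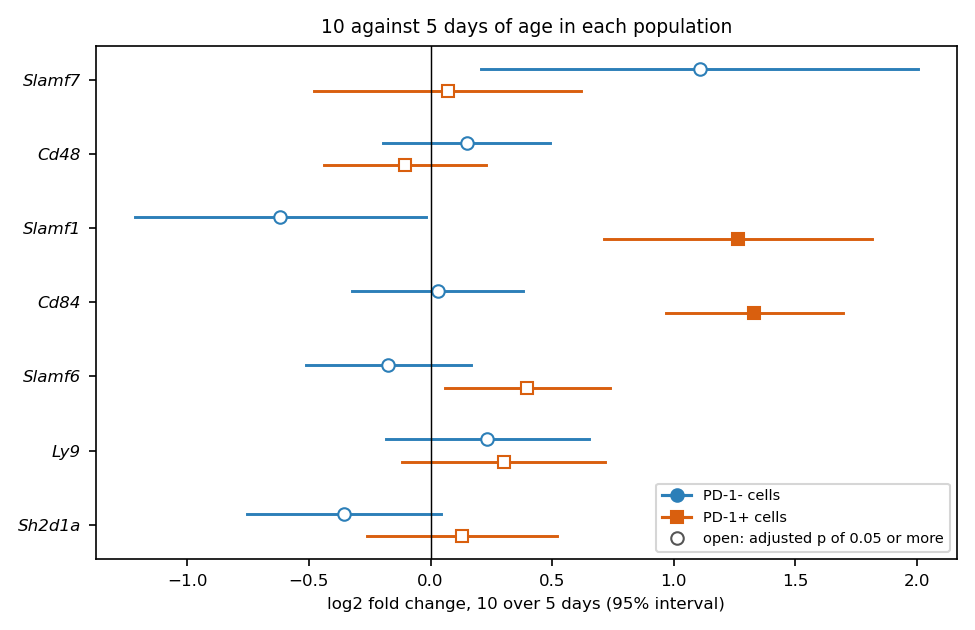
Log2 fold change of 10 over 5 days (horizontal axis) with its 95% interval for each gene (vertical axis), in PD-1- cells (circles) and PD-1+ cells (squares), filled where the adjusted p is below 0.05. Filled symbols appear for Slamf1 (1.26) and Cd84 (1.33) in PD-1+ cells, and for no gene in PD-1- cells.

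Slamf6, Ly9 and Sh2d1a were not called in any of the 6 comparisons. Slamf6 encodes Ly108, a self-binding receptor of T, B and NK cells. At 5 days it stood at 469 and 478 CPM in PD-1- and 346 and 416 CPM in PD-1+ libraries. At 10 days the levels were 422 and 418 CPM in PD-1- and 426 and 579 CPM in PD-1+ libraries. PD-1+ libraries were thus the lower ones at 5 days and the higher ones at 10 days. Over both ages the populations overlapped, with a log2 difference of -0.03 and a 95% interval from -0.35 to 0.30 (edgeR adjusted p = 0.910). Its difference was -0.31 ± 0.16 at 5 days and 0.26 ± 0.16 at 10 days (edgeR adjusted p = 0.145 and 0.246), and the change between the ages was 0.57, with an interval from 0.09 to 1.05 before adjustment (edgeR adjusted p = 0.228). In PD-1+ cells it was 0.40 ± 0.16 from 5 to 10 days (edgeR adjusted p = 0.109), which passed without PD-1+ 10-day replicate 1 (0.60, edgeR adjusted p = 0.0414). The counts per gene do not separate the isoforms of Ly108.

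Ly9 encodes CD229, a self-binding receptor with a long extracellular part. At 5 days its levels were 123 and 148 CPM in PD-1- and 110 and 135 CPM in PD-1+ libraries. At 10 days they were 180 and 136 CPM in PD-1- and 171 and 131 CPM in PD-1+ libraries. The populations overlapped at both ages. The log2 difference over both ages was -0.11, with an interval from -0.43 to 0.21 (edgeR adjusted p = 0.608).

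Sh2d1a stood at 122 and 141 CPM in PD-1- and 134 and 134 CPM in PD-1+ libraries at 5 days. At 10 days it stood at 85.8 and 122 CPM in PD-1- and 147 and 145 CPM in PD-1+ libraries. Its range was narrower among PD-1+ than among PD-1- libraries. Over both ages the log2 difference was 0.26, with an interval from -0.07 to 0.59 (edgeR adjusted p = 0.188). At 10 days it was 0.51 ± 0.19, at the edge of the threshold (edgeR adjusted p = 0.0505), and there the PD-1+ libraries stood above the PD-1- libraries. It passed without PD-1- 10-day replicate 2 (0.77, edgeR adjusted p = 0.0168), without PD-1- 5-day replicate 2 (0.51, edgeR adjusted p = 0.0468) and with no filter on low counts (0.57, edgeR adjusted p = 0.0402). The male 5-day libraries held 141 and 134 CPM of this X-linked gene, against 122 and 134 CPM in the female ones.

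To compare genes with one another, CPM was divided by the exonic length of each gene. Per kilobase of all annotated exonic bases Cd48 stood first in each group, with 164 ± 18.6 CPM per kb for PD-1- and 433 ± 8.28 for PD-1+ cells of 5 days (SD, n = 2). The values of 10-day cells were 181 ± 10.6 and 403 ± 78.1 CPM per kb. Slamf6 and Ly9 followed, at 35.2 to 46.4 and 37.0 to 47.7 CPM per kb as group means. Their libraries overlapped in every group but 10-day PD-1-, where Ly9 was above. Cd84 (26.5 and 27.0 CPM per kb) and Sh2d1a (23.9 and 18.8 CPM per kb) came next in PD-1- cells, then Slamf1 (10.9 and 7.01 CPM per kb), and Slamf7 was last (0.983 and 2.13 CPM per kb). In 5-day PD-1+ cells Cd84 was last at 13.2 ± 2.26 CPM per kb, below Slamf7 (21.2 ± 2.35) and Slamf1 (18.7 ± 2.30), whose libraries overlapped, and Sh2d1a (24.3 ± 0.018). In 10-day PD-1+ cells Slamf1 had reached 44.8 ± 14.8 CPM per kb, and its libraries overlapped those of Slamf6, Ly9 and Cd84. Sh2d1a (26.5 ± 0.25 CPM per kb) and Slamf7 (22.2 ± 8.08) came last there and overlapped. The order below Cd48 depended on the length used. Over the longest coding transcript (1223 bases rather than 5505 for Sh2d1a) Cd48 again stood first in each group, and Sh2d1a had the second highest mean, 84.8 to 119.5 CPM per kb. Its libraries overlapped those of Slamf6 and Ly9 in 10-day PD-1- cells and those of Slamf1 in 10-day PD-1+ cells. By that length Ly9 had rank 4 of 7 in PD-1+ cells at 5 days and rank 6 at 10 days, and the mean of Slamf1 was above that of Slamf6 in 10-day PD-1+ cells, where their libraries overlapped.

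**Figure D4:**
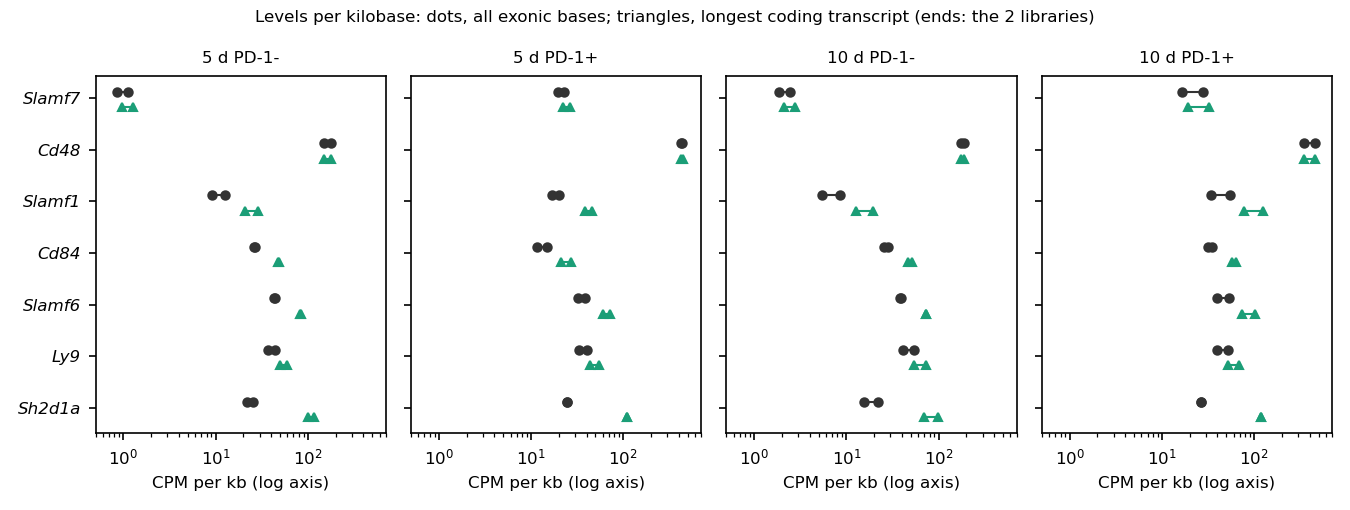
CPM per kilobase (horizontal log axis) of each gene (vertical axis) in the 4 groups, by all exonic bases (dots) and by the longest coding transcript (triangles), with a line joining the 2 libraries. Cd48 is farthest right in each panel, and Slamf7 moves from 0.983 and 2.13 CPM per kb in PD-1- cells to 21.2 and 22.2 CPM per kb in PD-1+ cells.

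The members were set beside the proteins that act under their tails. Of 25 genes of SAP and tyrosine switch signalling, all tested, 8 were higher in PD-1+ cells over both ages, 5 lower and 12 not called, against 21.9% higher and 19.6% lower among all tested genes. The share of lower genes was near that background. Their median log2 difference was 0.28. Fyn, the kinase that SAP recruits, stood at 99.2 and 108 CPM in PD-1- and 88.0 and 86.9 CPM in PD-1+ libraries at 5 days. Its 10-day levels were 105 and 119 CPM in PD-1- and 273 and 261 CPM in PD-1+ libraries. The 10-day PD-1+ libraries thus stood far above the other 6. Its log2 difference was -0.24 ± 0.17 at 5 days (edgeR adjusted p = 0.284) and 1.26 ± 0.16 at 10 days (edgeR adjusted p = 1.82e-05), and the change between the ages was 1.498 ± 0.23 (edgeR adjusted p = 0.00282). That interaction was called in 14 of 14 alternatives. With Ptpn11 it was 1 of 2 genes of the 25 with a called interaction, both upward, against 1.2% of all tested genes called upward and 0.923% downward.

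Phosphatases of the same motif differed from each other. Ptpn11, which encodes SHP-2, stood at 50.9 and 33.5 CPM in PD-1- and 104 and 100.3 CPM in PD-1+ libraries at 5 days. At 10 days it stood at 36.3 and 34.5 CPM in PD-1- and 225 and 260.0 CPM in PD-1+ libraries. It was higher in PD-1+ cells at both ages, by 1.25 ± 0.21 and 2.77 ± 0.22 (edgeR adjusted p = 0.000236 and 5.80e-08). SHP-2 also binds the tail of PD-1. Its interaction was 1.52 ± 0.30 (edgeR adjusted p = 0.0137), and the call was lost without PD-1- 5-day replicate 2, PD-1+ 5-day replicate 2, PD-1+ 5-day replicate 3 or PD-1- 10-day replicate 1 (edgeR adjusted p = 0.0811, 0.0619, 0.060 and 0.058). Ptpn6, which encodes SHP-1, stood at 241 to 301 CPM in PD-1- and 231 to 390 CPM in PD-1+ libraries. It was higher by 0.55 ± 0.16 at 5 days (edgeR adjusted p = 0.0123) and differed by -0.16 ± 0.16 at 10 days (edgeR adjusted p = 0.494). The change of the Ptpn6 difference between the ages was -0.70 ± 0.22 and was not called (edgeR adjusted p = 0.113). The 5-day call was lost without PD-1- 5-day replicate 2 or PD-1+ 5-day replicate 3 (edgeR adjusted p = 0.0799 and 0.0808), and without both libraries numbered 3 (0.132). Inpp5d, which encodes SHIP1, was higher over both ages by 0.86 ± 0.16 (edgeR adjusted p = 0.000493). By smallest p the list was led by Dok2, an adaptor that restrains Ras signalling (1.41 ± 0.18, edgeR adjusted p = 3.06e-05), Prkcq, the kinase PKC-theta (-0.77 ± 0.13, edgeR adjusted p = 0.000200), and Ap2b1, a subunit of the clathrin adaptor AP-2 (0.90 ± 0.15, edgeR adjusted p = 0.000258). Family members outside the named set were scarce, with 0 to 6 counts per library for Slamf8 and 0 to 7 for Slamf9, and neither was tested.

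Neighbours of the cluster were compared by position. The window from 250 kb before Cd244a to 250 kb after Slamf6 held 26 protein-coding genes, 19 of them outside the Slam family, of which 14 could be tested. Over both ages 0 of these 14 were higher in PD-1+ cells, 2 were lower and 12 were not called, against 21.9% higher and 19.6% lower among all tested genes. Vangl2, a planar polarity gene next to Slamf6, was lower by 2.49 ± 0.54 on the log2 scale (edgeR adjusted p = 0.00198), and Dcaf8, a substrate receptor of a ubiquitin ligase, by 0.97 ± 0.15 (edgeR adjusted p = 0.000113). Slamf7, Cd48 and Slamf1 are consecutive genes of the cluster, flanked by Ly9 on one side and Cd84 on the other.

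**Figure D5:**
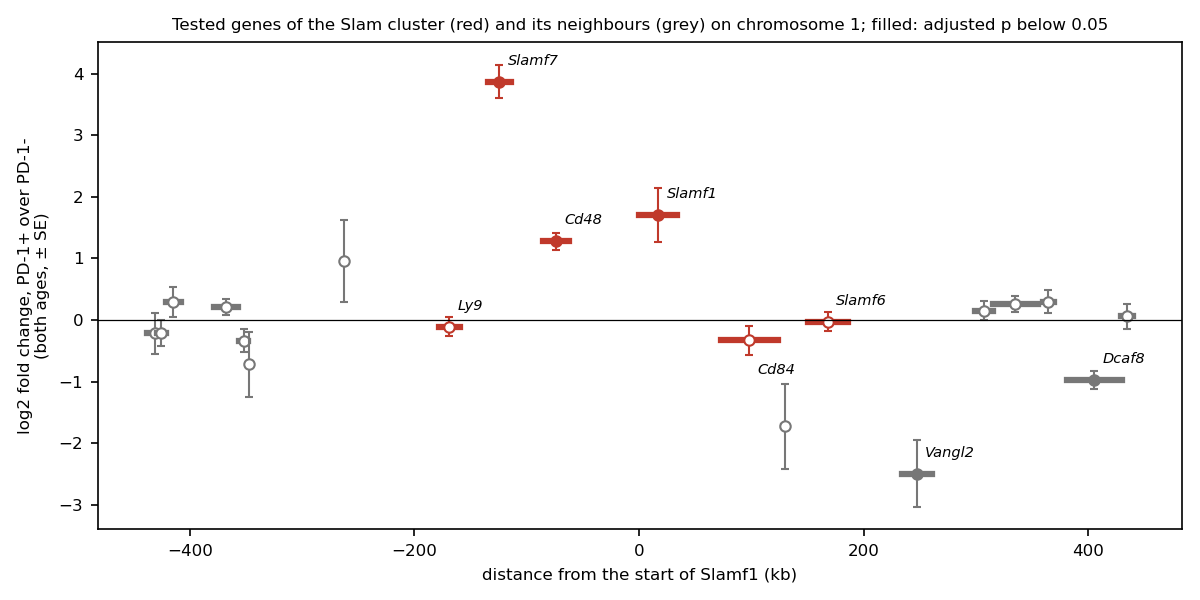
Log2 fold change of PD-1+ over PD-1- cells over both ages (vertical axis, ± SE) of the tested protein-coding genes around the cluster, by distance from the start of Slamf1 (horizontal axis, kb), with Slam family genes in red and filled symbols where the adjusted p is below 0.05. Slamf7 (3.87), Cd48 (1.28) and Slamf1 (1.70) stand above the other genes of the window that were called.

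Across the 8 libraries the members fell into patterns that their correlations describe. Points share the PD-1 sort and the library, so these values carry no test. Slamf7 and Cd48 varied together (Pearson r of log2 CPM 0.99), and Slamf1 with both (0.79 and 0.79). Cd84 varied with Slamf6 (0.67) and Ly9 (0.64) more than with Slamf1 (0.12). Among 8349 tested genes of mean log2 CPM 3 or more, those most like Slamf7 were Ggct, St14 and Cobll1 (r of 0.99 or higher for each), and those most like Cd48 were Sec22b, Pop4 and Gzmb. Slamf1 was most like Sdf4, Insig2 and Jak3 (r = 0.99, 0.99 and 0.98). Cd84 was most like Inpp5k, Cd37 and Ankrd12 (r = 0.98, 0.97 and 0.97). The genes closest to Slamf6 were Dpm1, Caprin2 and Fam174a (0.95, 0.92 and 0.90), to Ly9 Ccdc84, Usp8 and Zfp595 (0.93, 0.93 and 0.92), and to Sh2d1a Ptrh2, Prorsd1 and Rtraf (0.98, 0.96 and 0.95).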

How the data were processed

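RNA was measured in 8 libraries of 1000 double-sorted cells by oligo(dT)-primed, tagmented short-read sequencing, per the labels' protocols. The authors deposited raw counts per gene symbol, made with STAR 2.5.4, featureCounts and mm10, per the submitters' processing notes. The annotation and strand used were not given in the sources used here. All 8 columns matched a sample title, and 0 were left unused. Replicates of a group differed by more than counting error (chi-square per degree of freedom 4.00 to 8.61).

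Genes were kept by filterByExpr (11490 of 52997), scaled by TMM and tested with robust quasi-likelihood F tests in edgeR 4.0.16 (R 4.3.3). The difference over both ages came from a fit with terms for age and PD-1, and the other comparisons from a fit of the 4 groups. Benjamini-Hochberg adjustment ran over all 11490 tested genes. The ± of a log2 value is its standard error, and that of a level is the standard deviation. Standard errors were worked back from the log2 value and its F statistic, and the intervals were built on them. Intervals are 95% per gene, unadjusted. Alternatives were DESeq2 1.42.0, other scalings, no filter, a replicate block and left-out libraries. On simulated counts of 11490 genes, the comparison over both ages recovered 70 of 100 genes changed 2-fold and 97 of 100 changed 4-fold, and called 11 of 11290 unchanged genes. Far fewer genes were changed there than the 21.9% higher and 19.6% lower called in the data. These rates therefore need not hold for the data, and the other comparisons were not simulated. Positions are from GENCODE M21 (GRCm38), which held 49365 of the 52997 symbols.

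The members, gene lists and tests were chosen with earlier results of these data known. Named genes were all members, Fyn, Ptpn6, Ptpn11 and Inpp5d, the 3 list genes of smallest p, and called neighbours. Cd2, other family genes, the EAT-2 genes, overlapping genes and the sorted Pdcd1 were also named, as were the 3 genes most correlated with each member.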

Additional observations from a re-analysis of the deposited data

Results flagged for a closer look

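The PD-1 difference of 2 genes changed between 5 and 10 days by the interaction test. For Slamf1 the PD-1+ minus PD-1- difference on the log2 scale was larger at 10 days by 1.88 (edgeR adjusted p = 0.0265), with PD-1+ cells higher at both ages. For Cd84 it was larger by 1.30 (edgeR adjusted p = 0.00887), with PD-1+ libraries below PD-1- libraries at 5 days and above them at 10 days. The 10-day difference of Cd84 was not called (0.30, edgeR adjusted p = 0.187). Each of the 2 interaction calls was lost when certain single libraries were left out, as given above. Groups of 2 libraries were too small to look for single libraries that stand apart.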

How the results depend on the processing

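Of 574 values of the members recomputed under the alternatives, 532 kept their direction and their side of the threshold, 16 lost a call, 5 gained one and 21 changed sign. Slamf7 and Cd48 were called higher in PD-1+ cells under each alternative run, at both ages and over them. Sign changes concerned values that were not called, and the cause was not tested. Slamf6 over both ages was 0.008 with no filter, 0.037 without both 5-day libraries numbered 3, and -0.168 to 0.101 with single libraries left out. Sh2d1a at 5 days was -0.054 under upper-quartile scaling and -0.077 to 0.14 with single libraries left out. Slamf7 from 5 to 10 days in PD-1+ cells was -0.058 without both libraries numbered 3. With single libraries left out it ran from -0.36 to 0.401, Cd48 from -0.319 to 0.081 in that comparison, Cd84 from -0.05 to 0.103 in PD-1- cells, Ly9 from -0.267 to 0.039 at 5 days and -0.273 to 0.155 at 10 days, and Ptpn6 from -0.299 to 0.022 at 10 days. For Ly9 the interaction ran from -0.142 to 0.292.

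Counts of called genes moved more. Without both 5-day libraries numbered 3, 1156 genes were lower at 5 days (1915 in the full set), 526 were higher from 5 to 10 days in PD-1+ cells (849), PD-1- cells had 29 higher and 60 lower with age (17 and 14), and the interaction gave 1 member and 52 lower genes (2 and 106). That alternative has fewer samples. With no filter the age comparison in PD-1- cells gave 64 and 116 genes and the interaction 305 and 164 (full set 138 and 106). That run tested 32576 genes, against 11490 in the full set, so its larger counts need not be larger shares. The run without both 5-day libraries numbered 3 tested 12454 genes, and those with single libraries left out tested 12049 to 12595. DESeq2 gave 29 and 48 in PD-1- cells. With single libraries left out, lower genes at 5 days ranged from 980 to 1888. At 10 days higher genes ranged from 1210 to 2016 and lower genes from 959 to 1559. From 5 to 10 days PD-1- cells gave 3 to 30 higher and 1 to 60 lower genes, and PD-1+ cells 271 to 934 higher and 279 to 921 lower genes, with 1 to 2 members higher. The interaction gave 49 to 153 higher and 43 to 132 lower genes, with 0 to 2 members higher. The counts of 980, 271 and 279 were those without PD-1+ 5-day replicate 2.

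The library numbers were not taken as pairs: deviations of the same-numbered PD-1- and PD-1+ libraries correlated at 0.094 at 5 days and 0.114 at 10 days. Same-numbered libraries of 5 days shared their sex, which does not show that they shared an animal. A replicate block moved the interaction from 138 higher and 106 lower genes to 263 and 220, and with it Sh2d1a at 10 days passed the threshold (0.521, edgeR adjusted p = 0.0355). No block could be fitted for the comparisons of age. Where an arm kept 1 library, its spread was taken to be that of the other groups. With 12 and 9 counts of Slamf7 in PD-1- libraries at 5 days, depth limits its fold.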

Other observations

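Follicular helper and innate-like T cells are settings in which SAP is known to act, and their genes were counted beside the members. Of 11 tested follicular helper genes, 6 were higher in PD-1+ cells over both ages, 2 lower and 3 not called, against 21.9% higher and 19.6% lower among all tested genes. Their median log2 difference was 1.74 over both ages. The counts were the same at 5 and at 10 days, where 17.6% and 16.4% of all tested genes were higher and 16.7% and 12.9% lower. By smallest p the follicular helper list was led by Maf, a factor behind IL-21 production (5.12 ± 0.27, edgeR adjusted p = 3.49e-09), Il6ra, the IL-6 receptor (-2.59 ± 0.17, edgeR adjusted p = 3.33e-08), and the costimulator Icos (1.75 ± 0.13, edgeR adjusted p = 1.26e-07). Of 7 tested innate-like genes, 2 were higher over both ages, 1 lower and 4 not called, which is near the background of 21.9% and 19.6%. Il18r1, an IL-18 receptor chain, was higher by 2.32 ± 0.21 (edgeR adjusted p = 7.33e-07) and Cd160, a receptor for HVEM, by 1.98 ± 0.29 (edgeR adjusted p = 6.77e-05). Klrb1c, the gene of NK1.1, was lower over both ages (-3.05 ± 0.86, edgeR adjusted p = 0.0102), though libraries of the populations overlapped. It had 30 and 14 counts in 10-day PD-1- libraries and 1 to 3 in the others. Its difference was -0.76 ± 1.35 at 5 days (edgeR adjusted p = 0.700) and -4.02 ± 0.96 at 10 days (edgeR adjusted p = 0.00421). The call over both ages was lost without PD-1- 10-day replicate 1, PD-1+ 10-day replicate 1 or PD-1+ 10-day replicate 2. The values were then -2.729, -2.754 and -2.415.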
